A study of Mus musculus with 2 samples.

Results

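The genes described here are 7 regulators of the switch between embryonic or fetal and adult globin genes: Bcl11a, Zbtb7a, Sox6, Nr2c1, Nr2c2, Lin28b and Hic2. They were taken by name, and all 7 were found among 42462 annotated genes, of which 21461 were protein-coding and nuclear. The RNA measured was total RNA longer than 200 bases from MEP (megakaryocyte-erythroid progenitors), primary cells of the bone marrow lineage that makes red cells and megakaryocytes, taken from male C57BL/6J mice aged 5 to 6 weeks. There was 1 group of 2 libraries of 100 cells each, labelled biological replicates 2 and 1, with separate biosamples and the same donor record. No second condition exists in the series, so there is no test between groups, and the spread between the libraries may be technical. The gene tables summed to 51510347 expected counts for replicate 2 and 30016974 for replicate 1.

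Each vertebrate globin locus carries genes used at successive stages of development, and the switch to the adult genes depends on repressors that bind the promoters of the earlier ones. Bcl11a and Zbtb7a encode zinc finger repressors that recruit the NuRD chromatin complex, Sox6 encodes an HMG-box factor that works with BCL11A, and Nr2c1 and Nr2c2 encode the orphan nuclear receptors TR2 and TR4, the DNA-binding core of a further repressor complex. Lin28b and Hic2 belong to the fetal side. LIN28B blocks the maturation of let-7 microRNAs and HIC2 represses BCL11A, both as known from human erythroid cells.

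Sequences that separate the forms of Bcl11a are shown first, because much of the description of this gene concerns its transcripts. In human nomenclature the forms are XL, L and S. They differ in exon 4, which encodes the C-terminal zinc fingers that bind DNA. XL reads through exon 4 to its end, L leaves it late and S leaves it early, and both L and S then join the same last exon. The 30 bases around each of these points are from GENCODE M21 transcripts on GRCm38, chromosome 11, plus strand. Lower case marks the 15 bases up to the point where the forms part and capitals mark the 15 bases that follow it.
Bcl11a-202 (XL), chr11:24163288-24163289: cccctgaccccgcggGTTGGTATCCCTTCA
Bcl11a-203 (S), chr11:24163288-24172699: cccctgaccccgcggGTCCTTCACACACCC
Bcl11a-201 (L), chr11:24164888-24172699: gacgcagcgacacttGTCCTTCACACACCC
A further short transcript, Bcl11a-204, starts from another first exon, and Bcl11a-205 runs from exon 2 into the intron. Each follows the form it is compared with. For exon 1 to exon 2 the lower case differs and the capitals are the shared start of exon 2, and for the end of exon 2 the lower case is shared and the capitals differ.
Bcl11a-202 (exon 1 to exon 2), chr11:24078445-24085321: aacgggaattctcgcCCGAACCTCTTGAAG
Bcl11a-204 (exon 1 to exon 2), chr11:24080739-24085321: ttacagcccggccagCCGAACCTCTTGAAG
Bcl11a-202 (exon 2 to exon 3), chr11:24085650-24158253: aggaacacatagcagATAAACTTCTGCACT
Bcl11a-205 (exon 2 into the intron), chr11:24085650-24085651: aggaacacatagcagGTAAATGAGAAGCGA

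The labelled cell type was checked against marker genes, and the libraries differed in markers of other cells. Levels are in TPM as the authors computed them, a transcript's share of its library after correction for length. All 8 erythroid markers reached 10 TPM in both libraries, while 1 of 6 megakaryocyte markers did, Itga2b at 14.5 and 11.45 TPM. Of all protein-coding nuclear genes, 24.7% reached that level. The 8 B lineage markers summed to 127.38 TPM in replicate 2, against 7.14 TPM in replicate 1. In all, 7 of the 8 were past 2-fold higher in replicate 2, among them Igll1, Vpreb1, Cd79a, Ebf1, Cd79b and Pax5. Vpreb1, a part of the pre-B cell receptor, had 32.5 TPM in replicate 2, against 0 counts in replicate 1, and Igll1, its partner, had 41.77 TPM, against 0.43 TPM. The 8 neutrophil markers, S100a8, S100a9, Ngp, Camp, Lcn2, Ltf, Elane and Mpo, summed to 6.39 TPM in replicate 2, with 5 of them at 0 counts, against 1882 TPM in replicate 1, and all 8 were past 2-fold lower in replicate 2. Of all named genes with a mean of at least 1 TPM, 11.2% were past 2-fold in either direction. In such bulk libraries fewer cells of a type and less RNA per cell cannot be told apart.

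Bcl11a stood far above the other 6 genes. Bcl11a (ENSMUSG00000000861.11, mm10 chromosome 11, 24078056 to 24174123, plus strand) had 105.9 TPM in replicate 2, against 80.16 TPM in replicate 1, a mean of 93.03 ± 18.2 TPM (SD, n = 2). These values rested on 14225 and 7510 expected counts. The gene lay above 97.3% of protein-coding nuclear genes in replicate 2 and above 96.8% in replicate 1. Bcl11a is also a B lineage and plasmacytoid dendritic cell gene. In replicate 1, with B lineage markers at 7.14 TPM in all, Bcl11a was at 80.16 TPM. The part of B lineage RNA in the higher TPM of Bcl11a in replicate 2 was not tested. The 4 plasmacytoid dendritic markers summed to 30.24 TPM in replicate 2, against 35.44 TPM in replicate 1. Tcf4 was at 15.2 and 15.35 TPM and Bst2 at 14.55 and 19.56 TPM in replicates 2 and 1, Irf8 was at 0.49 and 0.53 TPM, and Siglech had 0 counts in both. The part of such cells in the Bcl11a level was not tested.

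Nr2c2 and Zbtb7a followed at nearly the same level. Nr2c2 (mm10 chromosome 6, 92091390 to 92174294) had 14.33 TPM in replicate 2, against 16.88 TPM in replicate 1, a mean of 15.6 ± 1.80 TPM (SD, n = 2). Zbtb7a (mm10 chromosome 10, 81135220 to 81152995) was at 16.22 and 13.82 TPM in replicates 2 and 1, a mean of 15.02 ± 1.70 TPM (SD, n = 2). The order of this pair was not the same in the 2 libraries: Nr2c2 was at 0.883 times the level of Zbtb7a in replicate 2, against 1.22 times in replicate 1. Bcl11a was at 6.53 times the level of Zbtb7a in replicate 2, against 5.80 times in replicate 1.

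Sox6 and Nr2c1 formed a second pair without a fixed order. Sox6 (mm10 chromosome 7, 115470872 to 116038796, minus strand) had 3.67 TPM (783 counts) in replicate 2, against 2.41 TPM (389 counts) in replicate 1, a mean of 3.04 ± 0.891 TPM (SD, n = 2). Nr2c1 (mm10 chromosome 10, 94148023 to 94197211) was at 2.59 TPM from 357 counts and 3.38 TPM from 233 counts in replicates 2 and 1, a mean of 2.99 ± 0.559 TPM (SD, n = 2). The receptors were thus unequal, with Nr2c2 at 5.53 times the level of Nr2c1 in replicate 2, against 4.99 times in replicate 1.

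The genes of the fetal side were the lowest. Hic2 (mm10 chromosome 16, 17233572 to 17263430) had 0.98 TPM (234 counts) in replicate 2, against 0.66 TPM (81 counts) in replicate 1, a mean of 0.82 ± 0.226 TPM (SD, n = 2). Lin28b (mm10 chromosome 10, 45376620 to 45486395, minus strand) had 0 counts in replicate 2, which allows up to 0.0148 TPM at a floor of 3 counts per library. In replicate 1 it had 13 counts (95% exact Poisson interval 6.92 to 22.2), or 0.11 TPM. Against that floor, and with the 13 counts taken as exact, replicate 2 was at least 7.57-fold lower; the 95% exact interval of the ratio of replicate 2 to replicate 1 reached up to 0.188. Such intervals and floors hold for the error of counting alone, because several reads can come from the same molecule.

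The order of the 7 genes was therefore Bcl11a, then Nr2c2 with Zbtb7a, then Sox6 with Nr2c1, then Hic2, then Lin28b. Only the positions within the 2 pairs changed between the libraries. At a minimum of 10 TPM in both libraries, Bcl11a, Nr2c2 and Zbtb7a were counted, 3 of 7 genes, where 24.7% of protein-coding nuclear genes reached the same level. At 1 TPM in both libraries, 5 of 7 genes were counted, beside 44.2% of protein-coding nuclear genes. With 7 genes these shares are a description.

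**Figure D1:**
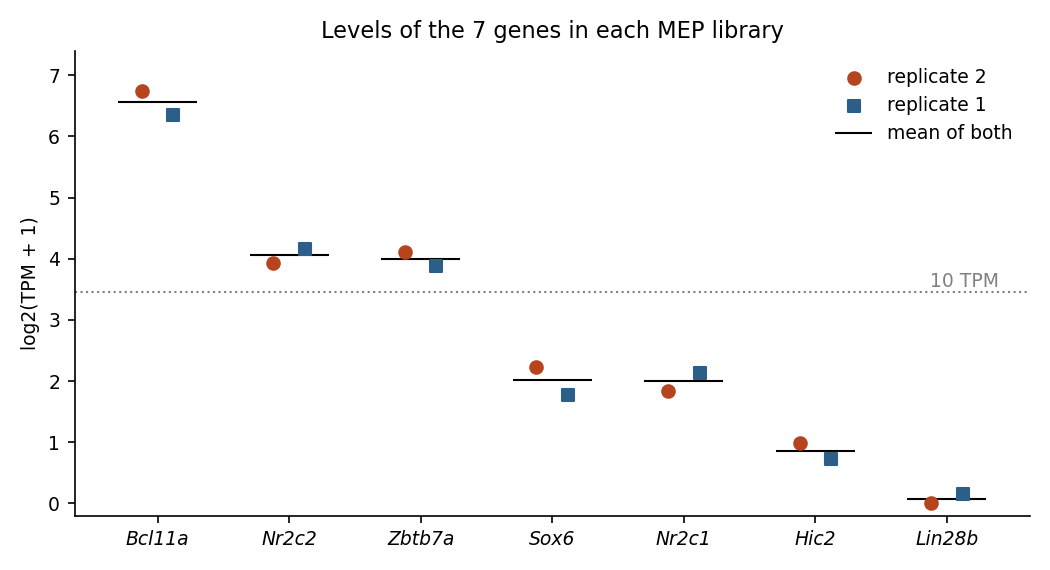
Level of each gene in each library as log2(TPM + 1), with replicate 2 (circles) left of replicate 1 (squares), a bar at the log2 value of the mean TPM and a dotted line at 10 TPM. Bcl11a at 105.9 and 80.16 TPM stands alone at the top, Nr2c2 and Zbtb7a lie just above the line, and Lin28b lies at 0 and 0.11 TPM.

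Of the 5 genes with a mean of at least 1 TPM, 0 differed by 2-fold or more between the libraries, as log2(TPM + 1), replicate 2 minus replicate 1. Of 11355 named genes of any type with that mean, 11.2% did, and the median difference over them was 0.18. The difference was 0.45 for Sox6, 0.40 for Bcl11a and 0.22 for Zbtb7a, against -0.22 for Nr2c2 and -0.29 for Nr2c1. Hic2 and Lin28b, under the minimum, were at 0.25 and -0.15. As TPM ratios of replicate 2 to replicate 1 with 95% exact intervals, Nr2c2 was at 0.849 (0.804 to 0.895), Nr2c1 at 0.766 (0.648 to 0.908), Zbtb7a at 1.17 (1.11 to 1.24) and Hic2 at 1.48 (1.14 to 1.92). All 4 intervals lie on 1 side of a ratio of 1, for counting error only. Relative to the median of all genes, the differences were 0.27 for Sox6, 0.22 for Bcl11a and 0.04 for Zbtb7a, and -0.40 for Nr2c2 and -0.47 for Nr2c1. Adding 1 to each TPM makes the differences of low genes look smaller than they are.

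For Bcl11a the direction between libraries depended on the scaling. As TPM the ratio of replicate 2 to replicate 1 was 1.32 (95% exact interval 1.28 to 1.36). Without length correction the gene took 551 CPM, counts scaled here to the sum over protein-coding nuclear genes, in replicate 2 and 556 CPM in replicate 1, a ratio of 0.992. As a share of all counts of the library the ratio was 1.10. With length correction kept and TPM rescaled over protein-coding nuclear genes, the log2 difference was 0.22, against 0.40 as deposited. As CPM with TMM factors the log2 difference was -0.06, and with DESeq2 size factors it was also -0.06. The authors' effective length of the gene, an average over its transcripts weighted by their abundance, was 3477 bases in replicate 2 and 4264 bases in replicate 1. Sox6 also differed less without length correction, but its direction did not change. Its TPM ratio was 1.52, against 1.05 in shares of protein-coding counts and 1.17 in shares of all counts. As CPM with TMM factors its log2 difference was 0.03. Its effective lengths were 5519 and 7350 bases in replicates 2 and 1. Nr2c2 and Nr2c1 were lower in replicate 2 under all 5 scalings drawn, with log2 differences of -0.36 and -0.32 as CPM with TMM factors.

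**Figure D2:**
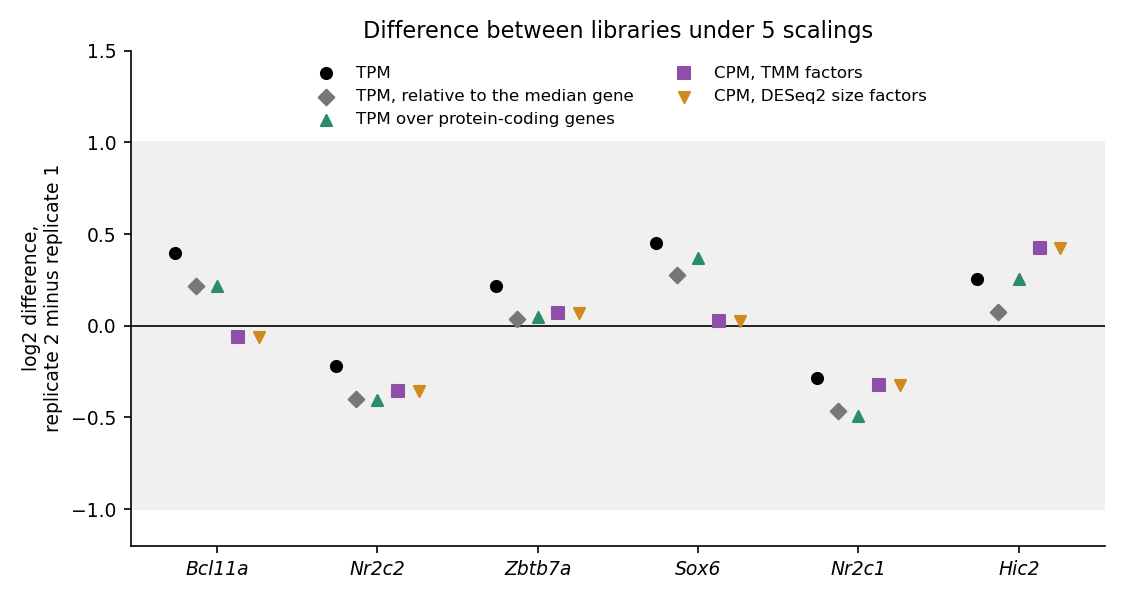
Log2 difference, replicate 2 minus replicate 1, of 6 genes under 5 scalings with a pseudocount of 1; the grey band spans less than 2-fold and Lin28b, with 0 counts in replicate 2, is not drawn. Bcl11a lies at 0.40 as TPM and at -0.06 as CPM with TMM factors, while Nr2c2 and Nr2c1 lie below 0 throughout.

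Several forms of Bcl11a were present, and the longest had nearly the same TPM as deposited in both libraries. Other scalings, which changed the direction for the whole gene, were not applied to single transcripts. The XL transcript Bcl11a-202, with 835 codons, had 22.49 TPM in replicate 2, against 22.62 TPM in replicate 1. The L transcript Bcl11a-201, with 773 codons, had 10.69 TPM in replicate 2, against 3.99 TPM in replicate 1. The S transcript Bcl11a-203, with 243 codons, was at 11.27 and 16.09 TPM in replicates 2 and 1.

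The largest difference in absolute TPM was in Bcl11a-204, which had 30.61 TPM in replicate 2, against 11.79 TPM in replicate 1. It was the leading transcript of replicate 2 at 28.9% of the gene's TPM, against 14.7% in replicate 1. Its coding sequence has 191 codons, against 243 in Bcl11a-203. It begins inside exon 2, at 24085422, where that of Bcl11a-203 takes exon 2 from 24085321. It therefore lacks the 55 coding bases of the usual first exon and also the first coding bases of exon 2. In the human protein the extreme N terminus binds RBBP4, a NuRD subunit. The 2 short transcripts summed to 39.5% of the Bcl11a TPM in replicate 2 and 34.8% in replicate 1. Of the TPM in coding transcripts, 55.8% and 51.2% were in these 2 short transcripts together, in replicates 2 and 1. XL took 30.0% and 41.5%, and L took 14.2% and 7.32%. Bcl11a-203 alone was lower in replicate 2, at 11.27 and 16.09 TPM, while Bcl11a-204 was higher.

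Much of the Bcl11a signal was not in coding transcripts. Bcl11a-205 (chr11, exon 2 from 24085321 extended by 5256 bases to 24090906), annotated as a retained intron, had 24.19 TPM in replicate 2, against 25.43 TPM in replicate 1. In replicate 1 it was the leading transcript, at 31.7% of the gene, against 22.8% in replicate 2. The leading transcript of Bcl11a thus differed between the libraries. It differed for 31.8% of 7421 protein-coding nuclear genes with several transcripts and a mean of at least 1 TPM. Bcl11a-206, a processed transcript without coding sequence, had 6.65 TPM in replicate 2, against 0.24 TPM in replicate 1. The coding transcripts summed to 75.06 TPM in replicate 2, against 54.49 TPM in replicate 1, or 70.9% and 68.0% of the gene. These shares are estimates from short reads on total RNA, in which unspliced RNA can also give reads in introns.

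**Figure D3:**
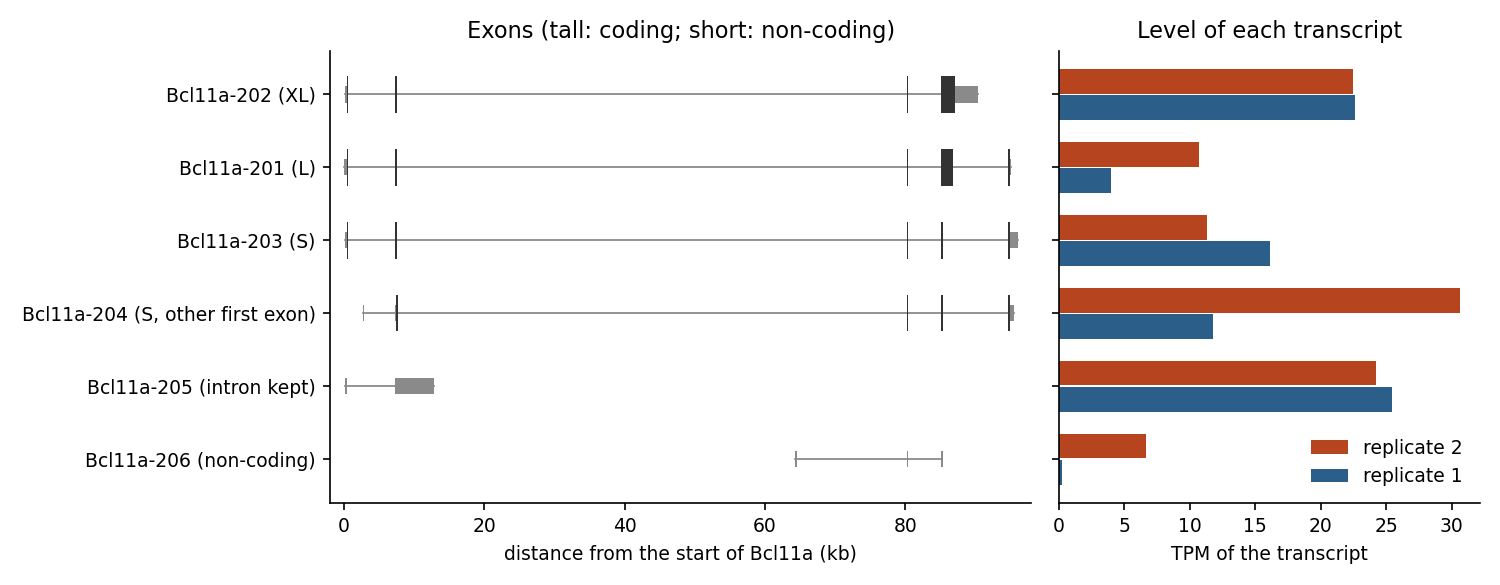
Left, exons of the 6 Bcl11a transcripts against distance from the gene's start in kb, with coding parts tall and dark; right, TPM of each transcript, replicate 2 above replicate 1. XL is at 22.49 and 22.62 TPM, and Bcl11a-204, with its own first exon, is at 30.61 and 11.79 TPM.

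The first exon of Bcl11a-204 lies 2614 bases inside the gene and falls in the promoter window that RefSeq gives for Bcl11a (GRCm38.p6, plus strand, 250 bases before to 50 after the start site). The window is shown because the transcript with the largest difference in absolute TPM begins in it. Capitals mark the 70 bases of that first exon, which starts 25 bases before the RefSeq start site.
Bcl11a promoter window, chr11:24080445-24080744: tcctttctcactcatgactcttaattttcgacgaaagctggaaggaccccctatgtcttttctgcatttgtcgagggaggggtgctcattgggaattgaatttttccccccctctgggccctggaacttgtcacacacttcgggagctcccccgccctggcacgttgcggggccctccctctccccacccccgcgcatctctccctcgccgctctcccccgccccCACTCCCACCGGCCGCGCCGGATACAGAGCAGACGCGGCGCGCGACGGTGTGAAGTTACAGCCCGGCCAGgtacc

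Among the other genes with several transcripts, the same transcript led in both libraries except in Sox6, though its share could differ. Zbtb7a-201 held 99.8% of its gene in replicate 2 and 98.4% in replicate 1, and Nr2c2-201 held 79.0% and 76.7%. Of the other Nr2c2 transcripts, Nr2c2-203 was at 13.1% and 3.52%, Nr2c2-202 at 7.96% and 8.26%, and the non-coding Nr2c2-204 at 0% and 11.5% in replicates 2 and 1. Nr2c1-203 held all of the gene in replicate 2 and 66.2% in replicate 1, where Nr2c1-201, with the same coding length of 590 codons, held 33.8%. Hic2-201 held all of the gene in replicate 2 and 81.6% in replicate 1, and a transcript without a name in the annotation used here held 18.4%.

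Sox6 was assigned to different transcripts in each library. In replicate 2, Sox6-202 held 53.3% and Sox6-203 held 46.7%, against 19.7% and 0% in replicate 1. In replicate 1, Sox6-204 held 59.5% and Sox6-205 held 20.7%, against 0% each in replicate 2. All 4 are coding, with 785 to 827 codons. In all, the leading transcript differed for Bcl11a and Sox6, 2 of the 5 genes with several transcripts and a mean of at least 1 TPM, where it differed for 31.8% of 7421 protein-coding nuclear genes of that kind.

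An overlapping gene with counts limits 1 of the 7 values. The exons of Nr2c2 share 4590 bases with those of Mrps25, a mitochondrial ribosomal protein gene on the opposite strand, which had 47.9 TPM in replicate 2, against 25.22 TPM in replicate 1. The sources used here do not state whether counting used strand, so the Nr2c2 level is uncertain. The opposite-strand genes that overlap Bcl11a, Sox6, Nr2c1 and Hic2 had 0 counts in both libraries. Of these, Gm26635 shares 3091 exon bases with Hic2, and 4930538E20Rik shares 316 with Bcl11a. Whether opposite-strand reads there were counted for Hic2 or Bcl11a was not tested.

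Close relatives of the 7 genes were low. Of 10 paralogs, 0 were at 10 TPM or more in both libraries, beside 24.7% of protein-coding nuclear genes. The same 6 were below 1 TPM in both libraries, and Nr2f1, Nr2f2, Zbtb7c and Lin28a had 0 counts in both. Bcl11b, the T lineage relative of Bcl11a, had 0.27 TPM in replicate 2, against 0.26 TPM in replicate 1, and Zbtb7b, the T cell fate factor ThPOK, was at 2.33 and 2.73 TPM. Sox5, which pairs with SOX6 in cartilage, was past 2-fold, at 4.29 TPM (218 counts) in replicate 2, against 0.53 TPM (42 counts) in replicate 1. Sox13 was lower in replicate 2, at 0.15 and 1.56 TPM in replicates 2 and 1, from 18 and 33 counts. Nr2f6 was at 1.53 and 0.6 TPM, and Hic1 at 0 and 0.07 TPM.

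The corepressors that BCL11A, ZBTB7A and the TR2 and TR4 receptors recruit were all well expressed. All 22 listed corepressor genes reached 10 TPM in both libraries, between 15.85 and 145.25 TPM, beside 24.7% of protein-coding nuclear genes. None was past 2-fold, beside 11.2% of all named genes with a mean of at least 1 TPM. That share takes in genes lower than these 22 and is not matched for level. In the NuRD list of 13 genes replicate 2 had a median of 67 TPM and replicate 1 a median of 56.43 TPM. Mbd2, the methyl-DNA reader, was at 108.87 and 113.16 TPM, Rbbp7, a histone chaperone, at 108 and 97.99 TPM, Chd4, the remodelling ATPase, at 72.17 and 78.01 TPM and Mta2 at 81.25 and 65.42 TPM in replicates 2 and 1. In the list of 9 other corepressors Ncor1 was highest, at 132.62 and 145.25 TPM. Dnmt1, the maintenance DNA methyltransferase found with TR2 and TR4, was at 56.04 and 61.89 TPM, Sin3a at 30.83 and 45.68 TPM and the deacetylase Hdac3 at 41.47 and 28.56 TPM.

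Known regulators of the repressors were also present. All 12 listed genes reached 10 TPM in both libraries, beside 24.7% of protein-coding nuclear genes. Their median log2 difference was 0.32, beside 0.18 over all genes. Klf1, the erythroid factor that activates Bcl11a and Zbtb7a, had 93.35 TPM in replicate 2, against 80.28 TPM in replicate 1. Myb, a progenitor factor upstream of Klf1, was at 208.4 and 187.58 TPM, and Gata1 at 100.24 and 77.52 TPM. Nfia, a nuclear factor I gene, had 99.2 TPM in replicate 2, against 56.23 TPM in replicate 1. None of the 12 was past 2-fold, beside 11.2% of all named genes with a mean of at least 1 TPM, a share not matched for level.

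In the let-7 pathway the oncofetal genes named below were low. The let-7 microRNAs share the seed GAGGUAG, bases 2 to 8, which pairs with the letters CTACCTC in targets such as the Lin28b transcript. The 9 mature sequences of the family in the RefSeq table (GRCm38.p6) share that seed, and 2 of them are shown with the seed in capitals, followed by the first such match after the Lin28b stop codon, with the match in capitals.
mmu-let-7a-5p, chr13:48538239-48538260, minus strand: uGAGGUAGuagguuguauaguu
mmu-let-7g-5p, chr9:106178846-106178867, plus strand: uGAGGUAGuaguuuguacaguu
Lin28b, chr10:45381019-45381040, minus strand: gggcgggaagtCTACCTCatgc
The Lin28b transcript holds 4 such matches in the 4445 bases after its stop codon. Mature microRNAs are under the 200 bases of the selected RNA, so let-7 itself was not measured. The 9 let-7 hairpin genes in the tables had 0 counts, from which no level of let-7 can be read. Of 13 listed genes of the pathway, 6 were at 10 TPM or more in both libraries, beside 24.7% of protein-coding nuclear genes. Another 5 stayed below 1 TPM in each library. The microRNA machinery was present, with Ago2 at 32.31 and 30.62 TPM, Dgcr8 at 30.52 and 31.61 TPM and Drosha at 33.5 and 26.65 TPM in replicates 2 and 1. Tut7, a terminal uridyltransferase that acts on let-7 precursors, was at 27.76 and 31.44 TPM. The oncofetal genes were low, with Hmga2 at 0.25 and 0.26 TPM and Igf2bp1, Igf2bp2 and Igf2bp3 at no more than 0.61 TPM in either library. Arid3a, also in the list, was higher, at 2.74 and 1.84 TPM in replicates 2 and 1.

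The listed globin genes other than the 4 adult ones were at 0. Hbb-y, Hbb-bh1, Hbb-bh2 and Hba-x had 0 counts in both libraries, while adult Hbb-bt was at 97.56 and 70.44 TPM and Hbb-bs at 48.79 and 60.1 TPM in replicates 2 and 1. Adult Hba-a2 had 168.53 and 110.2 TPM and Hba-a1 had 116.38 and 118.27 TPM. Since the 2 genes of each adult pair are almost the same in sequence, how their reads divide is uncertain. BCL11A binds the letters TGACCA, known from the human fetal globin promoters. Among 7 globin genes in the RefSeq promoter table, the windows of Hbb-y and Hba-x held TGACCA, and those of the 4 adult genes and Hbb-bh2 did not. On either strand, 13.6% of all 32851 windows held it. The Hbb-y window is shown (GRCm38.p6, minus strand), with the match in capitals, its first base at -86 from the start site.
Hbb-y promoter window, chr7:103853158-103853457: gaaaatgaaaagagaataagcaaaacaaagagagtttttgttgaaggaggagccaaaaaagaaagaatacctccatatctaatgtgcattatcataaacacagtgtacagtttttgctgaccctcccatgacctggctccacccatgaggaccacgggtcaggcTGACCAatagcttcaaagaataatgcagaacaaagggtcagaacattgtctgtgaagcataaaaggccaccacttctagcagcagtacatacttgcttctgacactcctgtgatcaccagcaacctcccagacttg
A direct repeat of the kind that TR2 and TR4 bind, 2 copies of AGGTCA with any 1 base between them on either strand, was in 0 of the 7 globin windows and in 0.0396% of all windows. The GATA letters AGATAA, on either strand, were found 2 times each in the windows of Zbtb7a and Lin28b and 1 time in 1 of the 6 Sox6 windows, and 1 time each in those of Hbb-bs and Hbb-bh2, beside 11.2% of all windows with at least 1 match. A match describes the letters and is not a bound site.

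**Figure D4:**
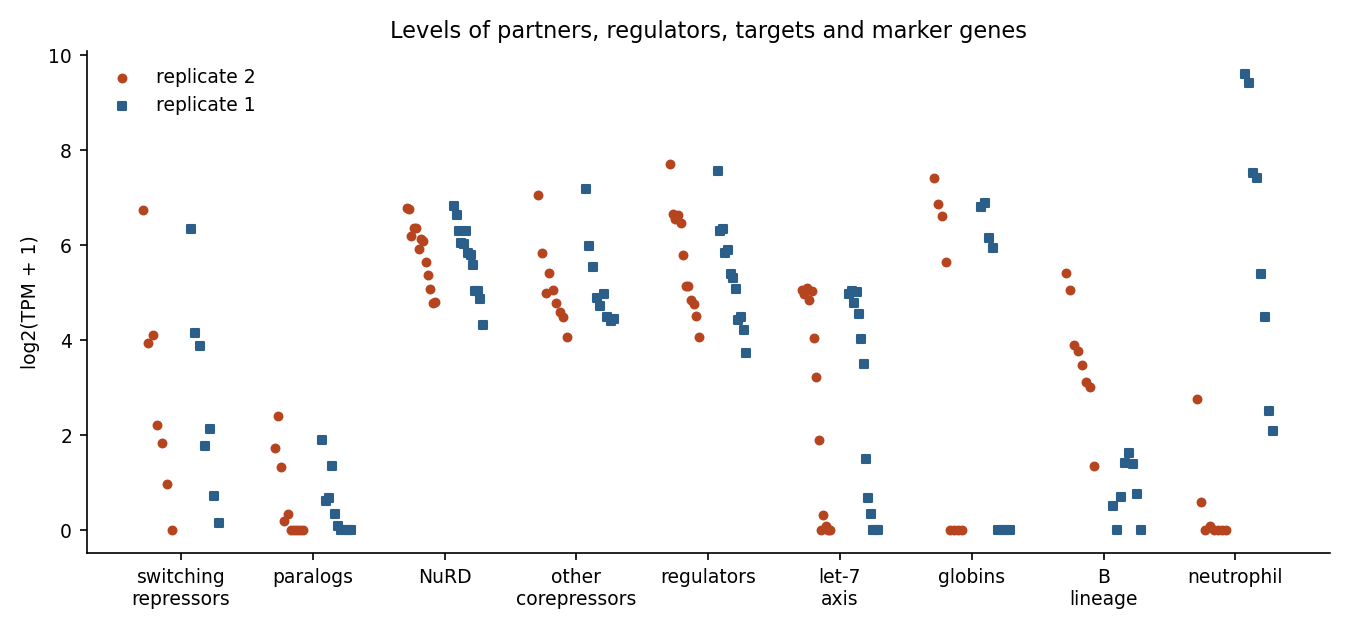
Levels as log2(TPM + 1) of every gene in 9 lists, with replicate 2 (circles) left of replicate 1 (squares) and genes in the same order in each. All corepressor and regulator genes lie above 10 TPM, the 4 globin genes other than the adult ones lie at 0, and the B lineage and neutrophil markers differ between the libraries.

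The 2 protein-coding nuclear genes with levels nearest to those of Bcl11a were Rbm38 and Creg1, both at a distance of 0.05 in log2(TPM + 1) over the 2 libraries. Rbm38 had 102.84 TPM in replicate 2, against 79.23 TPM in replicate 1, and Creg1 had 108.47 TPM, against 77.91 TPM. With 2 libraries this likeness is one of level only.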

How the data were processed

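A README deposited with the tables names mm10 and GENCODE M4; which quantifier was run is not given in the sources used here. Deposited by the authors were expected counts (estimated reads per feature), TPM over all features, and the percent of each gene's TPM by transcript. The deposited signal columns, bounds on TPM, gave no result. Names and positions were looked up in GENCODE M21 (GRCm38, the same assembly as mm10) without ID versions, which left 884 of 43346 genes unnamed.

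Of the counts, 50.1% in replicate 2 and 45.0% in replicate 1 lay on protein-coding nuclear genes. The libraries were compared for duplication and differed by a chi-square of 83.3 per degree of freedom over 13232 genes. The members, lists and rules were chosen with earlier results of these data known. The naming rule took the 7 genes, their paralogs, the globin genes, the 4 highest and all 2-fold different genes of the other lists, the 3 genes nearest in level to Bcl11a, and transcripts at 5% of a gene. A few genes under this rule are not reported here. The highest genes of most marker lists are left out, and the oncofetal genes, Arid3a and Itga2b were named after their values were seen. In the T and NK, stem and macrophage lists, 1 of 6, 0 of 6 and 0 of 6 markers were at 10 TPM in both libraries; Cd3g (1.1 TPM in replicate 2, against 12.59 TPM in replicate 1) and Hlf (0.33 TPM, against 1.99 TPM) were past 2-fold.

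Ratios carry 95% Clopper-Pearson intervals given the sum of both counts. Of the steps, only the log2 difference with its 2-fold rule was tried on simulated counts, which held counting error alone. Alternatives were other minimums, pseudocounts, filters and scalings, posterior mean TPM and each library alone; scalings took TMM (edgeR 4.0.16) or DESeq2 1.42.0 size factors from rounded counts (R 4.3.3). Python 3.11.15 with numpy 2.4.6, pandas 2.3.3, scipy 1.17.1 and matplotlib 3.10.9 did the rest.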

Additional observations from a re-analysis of the deposited data

Results flagged for a closer look

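Counts were seen in 1 feature outside the comparisons. Gm12063, a long intergenic non-coding RNA gene that ends 689 bases before the start of Bcl11a on the same strand (mm10 chromosome 11, 24076559 to 24077367), had 36 expected counts in replicate 2 and 23 in replicate 1, above the 3 counts that a count of 0 allows. No explanation was tested.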

How the results depend on the processing

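The count of genes at 10 TPM in both libraries, 3 of 7, was also 3 with a minimum of 5 TPM, with posterior mean TPM, with TPM rescaled over protein-coding nuclear genes and with either library alone; with a minimum of 20 TPM 1 was left, by construction of the higher minimum. The count of genes past 2-fold was 0 under all 8 alternatives, where the share of all genes past 2-fold ran from 6.86% to 16% over the 7 that keep a minimum mean. For Lin28b that 0 rests on the minimum mean or the pseudocount of 1, since its log2 difference was -1.07 with a pseudocount of 0.1 and -3.58 with 0.01. Of 49 alternative values of single log2 differences 28 left the counting interval of the TPM difference, and the sign changed for Bcl11a as CPM with TMM factors and with DESeq2 size factors, at -0.06 each. Rescaling moved the mean TPM of all 7 genes, since its divisor is smaller, to 216 for Bcl11a. No paired analysis was possible because the series has 1 group. Depth limits Lin28b and Hic2 most, with 0 and 13 and with 234 and 81 counts in replicates 2 and 1.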
